A study of Mus musculus with 30 samples.

Results

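Transcripts of the mitochondrial ribosomal proteins were followed in extensor digitorum longus (EDL) muscle, a fast hind limb muscle, of mice with experimental autoimmune encephalomyelitis (EAE). Members were all genes whose symbol starts with MRPL or MRPS and a digit. The table of 21073 genes held 78 of them, 49 named for the large subunit (MRPL) and 29 for the small subunit (MRPS). Muscle came from female wild-type SJL/J mice that were unimmunized (Ctrl), immunized with ovalbumin in complete Freund's adjuvant (OVA), or immunized with the myelin peptide PLP139-151 in the same adjuvant and without pertussis toxin (EAE-induced). Each treatment was sampled on day 14 (peak of disease) and day 40 (chronic remission), with 5 mice per group and 30 mice in all. Each mouse was sampled once, so the days compare different mice. The ages of the mice were not stated in the labels, and OVA-immunized mice carry the adjuvant but not the myelin antigen. All values below are RPKM, a read density corrected for exon length and sequencing depth, recovered from the log2 values that the authors deposited.

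Mitochondria keep their own ribosome, which makes the few membrane proteins of the respiratory chain that mitochondrial DNA encodes. Its proteins are all encoded in the nucleus, translated in the cytosol and imported, and then assembled on ribosomal RNA of mitochondrial origin. Many of them have a counterpart in the bacterial ribosome, and others are found in mitochondria alone. Some symbols do not match the place of the protein: MRPS30 and MRPS18A lie in the large subunit of the solved structure, and MRPS36 is a subunit of the α-ketoglutarate dehydrogenase complex that kept its ribosomal name. Muscle is rich in mitochondria, and the genes of the respiratory chain and of the mitochondrial ribosome are both targets of the nuclear programme of mitochondrial biogenesis.

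The depth was 18200000 to 31400000 assigned reads per mouse (median 21600000), estimated from the value of single reads. All 10 fast muscle markers exceeded 3 RPKM in every group. Their summed level was 92860 to 123039 RPKM in Ctrl mice on day 14 and 69288 to 83420 RPKM in EAE-induced mice, which did not overlap. PVALB had the largest drop (means of 14935 and 5369 RPKM), while the fast myosins MYH4 (5706 and 5820 RPKM) and MYH1 (1664 and 2060 RPKM) had no lower mean. On the same day, the 5 fibroblast markers summed to 718 to 1313 RPKM in Ctrl mice and to 282 to 447 RPKM in EAE-induced mice, the 8 macrophage markers to 287 to 435 and 136 to 308 RPKM, and the 4 erythroid markers to 151 to 539 and 20.7 to 149 RPKM. Among the fibroblast markers the collagen COL1A1 fell the most (means of 432 and 30.3 RPKM) and PDGFRA the least (7.64 and 6.74 RPKM). Among the macrophage markers C1QA (80.3 and 39.0 RPKM) fell more than CD68 (19.5 and 16.6 RPKM). The 8 neutrophil markers summed to 3.75 to 10.5 RPKM in Ctrl, 68 to 235 in OVA and 217 to 403 RPKM in EAE-induced mice on day 14. S100A8 (means of 1.3, 46.5 and 225 RPKM) led the sum in EAE-induced mice, and S100A9 (2.7, 71.9 and 36.1 RPKM) led it in Ctrl and OVA mice. Of the 8, 6 had a lower mean in EAE-induced than in OVA mice, S100A9 among them. The part of these cell types in the results below was not tested. In whole muscle, fewer cells of a type and less RNA per cell cannot be told apart.

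All members but 1 were well expressed. The mean over the 30 mice had a median of 32.9 RPKM over the 78 members, 66 of which lay between 10 and 100 RPKM. The highest levels were those of MRPL42 (269 RPKM), MRPL33 (207 RPKM), MRPS21 (194 RPKM), MRPL30 (116 RPKM) and MRPL18 (99.4 RPKM). The lowest were MRPS17 (5.71 RPKM), MRPL19 (5.32 RPKM), MRPS25 (5.13 RPKM), MRPL23 (4.85 RPKM) and MRPL36 (0.229 RPKM). MRPL36, the homologue of bacterial L36, was under the limit of 3 RPKM in every group, and the other 77 members were tested in each comparison. By subunit, the median level was 34.0 RPKM for MRPL and 24.4 RPKM for MRPS genes. Levels of MRPL23, MRPL48 and MRPS36 are uncertain because the annotation holds named pseudogenes of them, and 23 members share exon bases with another protein-coding gene. The counting was not stated to use strand, so reads of such partners may not be told apart. Of the genes named below, MRPS25 shares 69.8% of its exon bases with Nr2c2 and MRPS34 shares 63.4% with Mapk8ip3 and 37.0% with Nme3, the latter on the same strand, so that counting by strand could not part them either. MRPS18B shares 30.5% with the antisense gene Gm16279 and MRPL12 13.1% with the opposite-strand Gm16755. MRPL47 shares 13.9% with Ndufb5 and 10.2% with Actl6a, MRPL18 10.1% with Tcp1, MRPL27 7.6% with Eme1 and MRPL9 5.8% with Oaz3. MRPS18C shares 23.2% with the same-strand Gm43511, MRPL10 14.1% with Gm11574, MRPS30 9.3% with B430218F22Rik and MRPL44 7.7% with Wdfy1. Of those named above, MRPL19 shares 36.0% with Gcfc2.

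Promoters are shown for the members on which the results turn, to let their start regions be compared with their levels. RefSeq promoters (GRCm38.p6, 250 bases before to 50 after the start) matched 69 of the 78 members, with 75 start sites. The core of an ETS site (CCGGAAG, bound by GABPA), searched on both strands, was in 34.7% of the member promoters, 18.3% of the promoters of expressed genes and 8.9% of all promoters. The YY1 core (AAGATGGC) was in 16.0%, 4.8% and 2.7%, and the core of the NRF1 site (GCATGCGC) in 10.7%, 5.5% and 2.7% of them. The NRF1 site can read as itself on both strands, so overlapping hits occur. The MYC E-box (CACGTG) was in 9.3% of member promoters and 10.4% of those of expressed genes, the CCAAT box (CCAAT) in 40.0% and 37.0%, and the ESRRA core (TCAAGGTCA) in 0% and 0.2%. These matches are a description of letters, and binding was not measured. The start used for MRPL9 lies inside the annotated gene, which begins at chr3:94443154, so its printed bases are part of that gene. Below are the 100 bases before the start, 5′ to 3′ on the strand of the gene, with any of the searched motifs in capitals.
MRPL9 (chr3:94443236-94443335, plus strand; capitals, NRF1 core on both strands): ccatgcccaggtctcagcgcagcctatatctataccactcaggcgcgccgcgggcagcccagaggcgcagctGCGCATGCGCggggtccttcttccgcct
MRPL34 (chr8:71464826-71464925, plus strand; capitals, ETS core): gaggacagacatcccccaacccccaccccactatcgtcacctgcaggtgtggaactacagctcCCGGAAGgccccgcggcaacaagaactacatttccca
MRPL28 (chr17:26123403-26123502, plus strand; capitals, CCAAT box on both strands): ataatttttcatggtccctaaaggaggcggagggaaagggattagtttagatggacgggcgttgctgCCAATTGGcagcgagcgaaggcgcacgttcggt
MRPS9 (chr1:42851133-42851232, plus strand; capitals, CCAAT box): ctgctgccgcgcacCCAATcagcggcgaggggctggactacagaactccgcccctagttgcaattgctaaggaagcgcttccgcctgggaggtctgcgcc
MRPL12 (chr11:120484537-120484636, plus strand; no searched motif in the 300 bases): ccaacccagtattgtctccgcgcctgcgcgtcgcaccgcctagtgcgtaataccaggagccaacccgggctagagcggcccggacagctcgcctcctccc

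The first comparison was EAE vs. Ctrl on day 14. It asks how the peak of disease changes the muscle transcriptome. On day 14, 8 of the 77 members were lower in EAE-induced than in unimmunized mice and 0 were higher, by limma. The limits were an adjusted p (Benjamini-Hochberg) of 0.05 and a 1.5-fold difference. The share of 10.4% lower members is near the background, as 11.8% of the 8771 genes tested were lower. Of all genes tested 14.6% were higher. The members' median log2 fold change was -0.17, with 53 members below 0 and 24 above. That of all genes tested was 0.11, with 3607 below 0 and 5164 above. Without the fold change limit, 20 members were lower and 5 higher, against 19.0% and 28.8% of all genes. By symbol, 5 of 48 MRPL and 3 of 29 MRPS genes were lower, with medians of -0.19 and -0.09. By place in the structure, 5 of 50 genes of the large and 2 of 26 of the small subunit were lower, with medians of -0.16 and -0.15. Of the members with a bacterial counterpart 6 of 45 were lower (median -0.17), and of those found in mitochondria alone 1 of 31 (median -0.14). Scaling moved these counts: with median-of-ratios scaling, 12 members and 14.5% of all genes were lower and 0 and 11% higher (953 higher and 1258 lower genes, against 1282 and 1036 before).

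The 8 lower members are 7 ribosomal proteins of both subunits and the dehydrogenase subunit MRPS36. MRPL34, the short homologue of bacterial L34, was at 80.7, 62.9, 65.5, 62.3 and 44.4 RPKM in the Ctrl mice and at 42.7, 29.4, 34.1, 35.5 and 34.1 RPKM in the EAE-induced mice. All EAE-induced mice were below all Ctrl mice, and the log2 fold change was -0.83 ± 0.17 (SE, adjusted p = 0.00113). MRPL12 forms the flexible stalk that contacts the translation factors. It was at 135, 115, 105, 98.0 and 85.3 RPKM in Ctrl and at 89.8, 52.1, 60.0, 64.8 and 66.8 RPKM in EAE-induced mice, where a single mouse reached into the Ctrl range. Its log2 fold change was -0.70 ± 0.16 (adjusted p = 0.00218). MRPS9, whose bacterial counterpart reaches towards the tRNA in the head of the small subunit, was at 50.2, 37.0, 39.8, 36.1 and 32.5 RPKM in Ctrl and at 28.1, 20.2, 25.4, 20.9 and 26.6 RPKM in EAE-induced mice, again without overlap. The log2 fold change was -0.69 ± 0.13 (adjusted p = 0.000595). MRPL28, homologue of bacterial L28, was at 117, 72.6, 68.9, 72.4 and 51.5 RPKM in Ctrl and 56.2, 35.5, 43.7, 40.8 and 39.7 RPKM in EAE-induced mice, with a log2 fold change of -0.79 ± 0.21 (adjusted p = 0.00691). MRPS9, MRPL12 and MRPL28 were called in each of the 19 alternative analyses, and MRPL34 in 18 of them. The 19 include the fit without the fold change limit, which cannot lose a call.

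The other lower members were less firm. MRPL47, the homologue of L29 at the exit of the peptide tunnel, had a mean of 25.5 ± 5.58 RPKM (SD, n = 5) in EAE-induced and 38.7 ± 6.04 RPKM in Ctrl mice (log2 fold change -0.61). MRPL27, whose bacterial counterpart lines the peptidyl transferase centre, had means of 26.5 ± 6.91 and 39.7 ± 9.29 RPKM (-0.59, adjusted p = 0.0451). MRPS25, a small-subunit protein with no bacterial counterpart, had 3.95 ± 0.611 and 6.07 ± 1.29 RPKM (-0.60). MRPS36, the dehydrogenase subunit, had 5.57 ± 1.17 and 8.75 ± 1.66 RPKM (-0.65). These 4 members overlapped between the groups and lost the call when single mice were left out, MRPL27 in 8 of 10 such fits. The count of lower members was 4 without Ctrl replicate 1 and 4 without EAE replicate 2, against 11.2% and 9.94% of all genes. MRPL9, homologue of bacterial L9, lay just short of the fold change limit, at a log2 fold change of -0.58 ± 0.10 (adjusted p = 0.000248). It was at 33.8 to 41.3 RPKM in Ctrl and 20.5 to 27.2 RPKM in EAE-induced mice, which did not overlap. MRPL9, MRPL34 and MRPS9 were the 3 members whose EAE-induced mice all lay below all Ctrl mice, against 11.0% of all genes tested.

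A few members went the other way on day 14. MRPS18B, a small-subunit protein, is 1 of 3 paralogs related to bacterial S18. It was at 10.2, 13.3, 14.4, 10.5 and 13.1 RPKM in Ctrl and at 20.4, 19.1, 15.3, 16.4 and 18.4 RPKM in EAE-induced mice, with all EAE-induced mice above. The log2 fold change of 0.55 ± 0.12 (adjusted p = 0.0023) was under the fold change limit. MRPS18B was the single member whose EAE-induced mice all lay above the Ctrl mice, where 21.2% of all genes did. Its paralogs had log2 fold changes of -0.04 (MRPS18A, adjusted p = 0.854) and 0.03 (MRPS18C, which takes the place of S18, adjusted p = 0.924). MRPL32, which needs cleavage by the m-AAA protease before it is assembled, was at 30.5 to 39.1 RPKM in Ctrl and 37.6 to 68.7 RPKM in EAE-induced mice (0.49, adjusted p = 0.0146). MRPS22 (0.44, adjusted p = 0.0166), MRPL40 (0.44, adjusted p = 0.0198) and MRPL17 (0.42, adjusted p = 0.0417) also passed the adjusted p of limma alone, and in each the highest value was that of EAE replicate 1. These 3 encode mitochondria-specific proteins of the small and large subunits (MRPS22, MRPL40) and the homologue of bacterial L17.

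**Figure D1:**
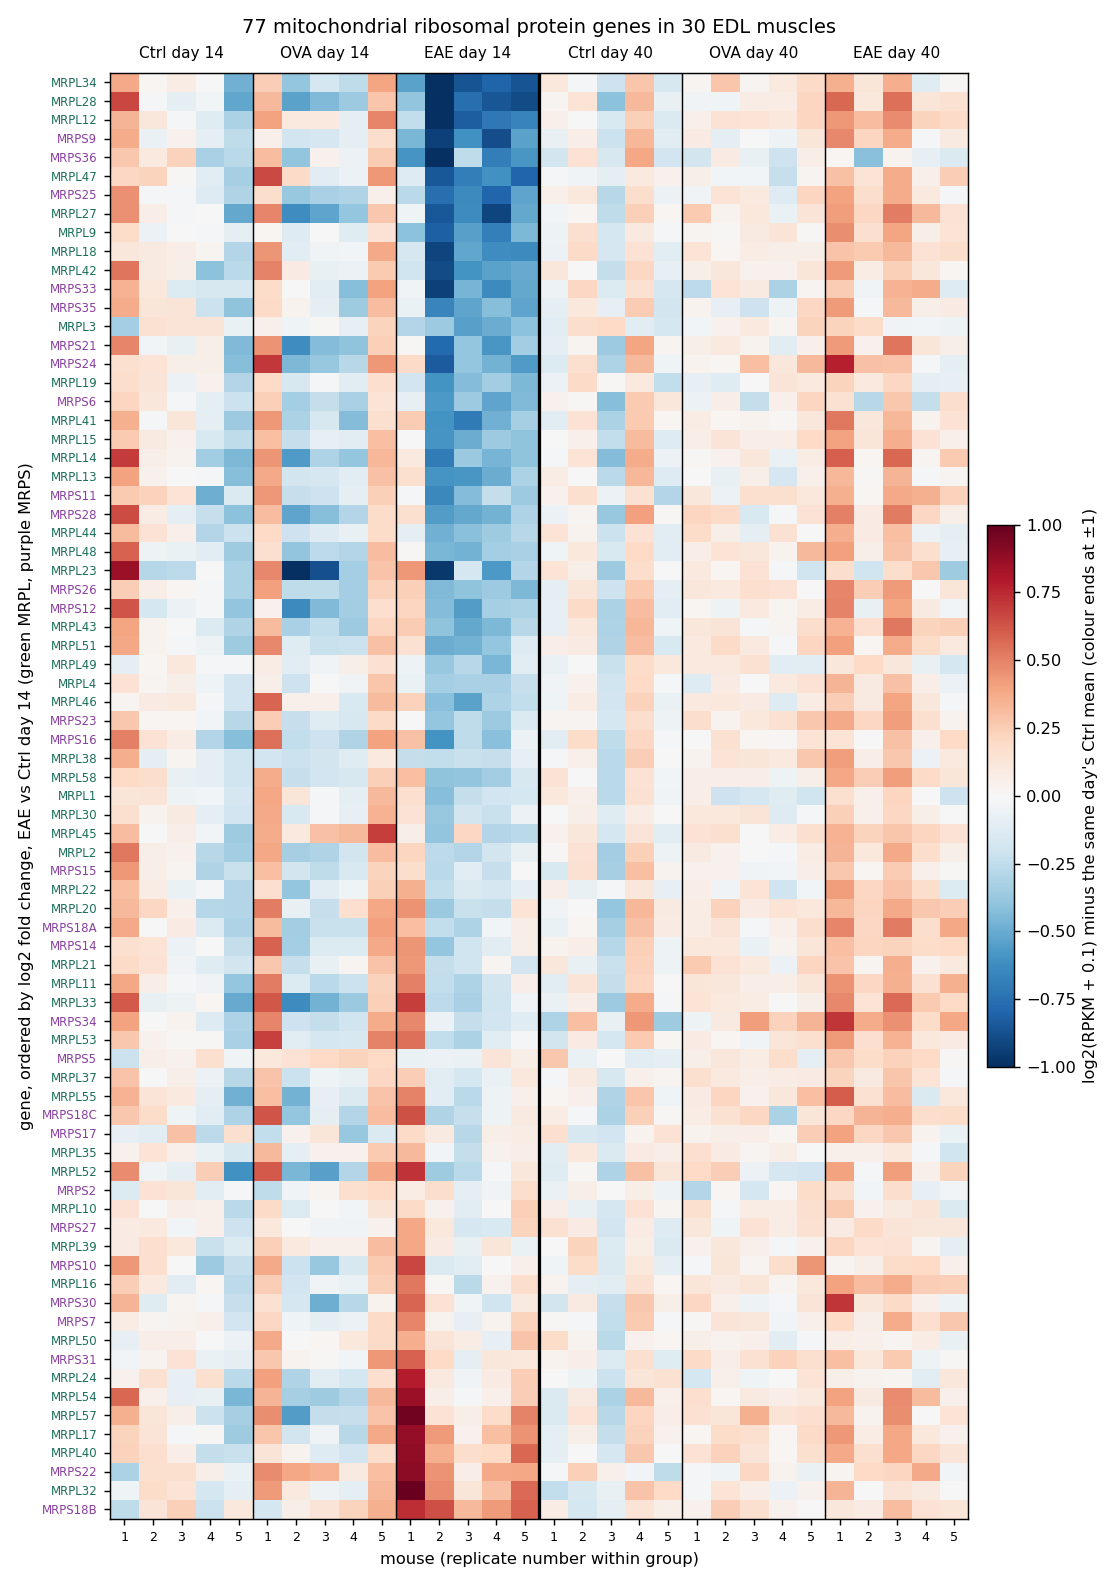
Each row is 1 of 77 members and each column 1 of 30 mice. Colour gives log2(RPKM + 0.1) minus the mean of the same day's 5 Ctrl mice, and rows are ordered by the log2 fold change of EAE vs. Ctrl on day 14. The upper rows are blue in EAE-induced mice 2 to 5 on day 14, EAE replicate 1 is red in the lower rows, and single Ctrl and OVA mice are red or blue over most rows.

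The members' median varied between the mice of every group on day 14. The median log2 ratio of the 77 members to the Ctrl mean was 0.27, 0.07, 0.04, -0.07 and -0.27 in the 5 Ctrl mice. It was 0.32, -0.20, -0.12, -0.15 and 0.27 in the OVA mice and 0.21, -0.38, -0.28, -0.24 and -0.12 in the EAE-induced mice. The groups therefore overlapped in this median. Counted against the mean RPKM of the Ctrl group, 75 of 77 members were below it in Ctrl replicate 5 and 76 above it in OVA replicate 5. In other mice the members split, with 34 below and 43 above in Ctrl replicate 3 and 26 below and 51 above in EAE replicate 1. The median coefficient of variation of the members within a group was 15.9% (Ctrl), 18.8% (OVA) and 20.1% (EAE) on day 14 and 12.4%, 6.3% and 11.0% on day 40.

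Short genes that are no members moved in the same mice. Members are short, with a median of 1284 exon bases against 2959 bases for all expressed genes. The 512 other genes under 1000 exon bases had a median log2 ratio of 0.44, 0.02, -0.02, -0.04 and -0.36 in the Ctrl mice on day 14 and of 0.24, -0.43, -0.24, -0.35 and -0.18 in the EAE-induced mice. When a smooth trend of the log ratios on exon length was removed from each mouse, the members' median was between -0.11 and 0.07 in the Ctrl mice, 0.00 and 0.15 in the OVA mice and -0.15 and 0.02 in the EAE-induced mice. The median log2 fold change of EAE vs. Ctrl was then -0.12 and that of all genes 0.03. In this setting 8 members were lower and 1, MRPS18B (0.69), higher, against 13% and 11% of all genes. Of the members called before, 5 stayed past both limits: MRPS25 (-0.86), MRPL47 (-0.74), MRPL28 (-0.64), MRPL12 (-0.59) and MRPS9 (-0.59). MRPL34 (-0.57, adjusted p = 0.000133), MRPS36 (-0.42) and MRPL27 (-0.37) fell under the fold change limit.

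**Figure D2:**
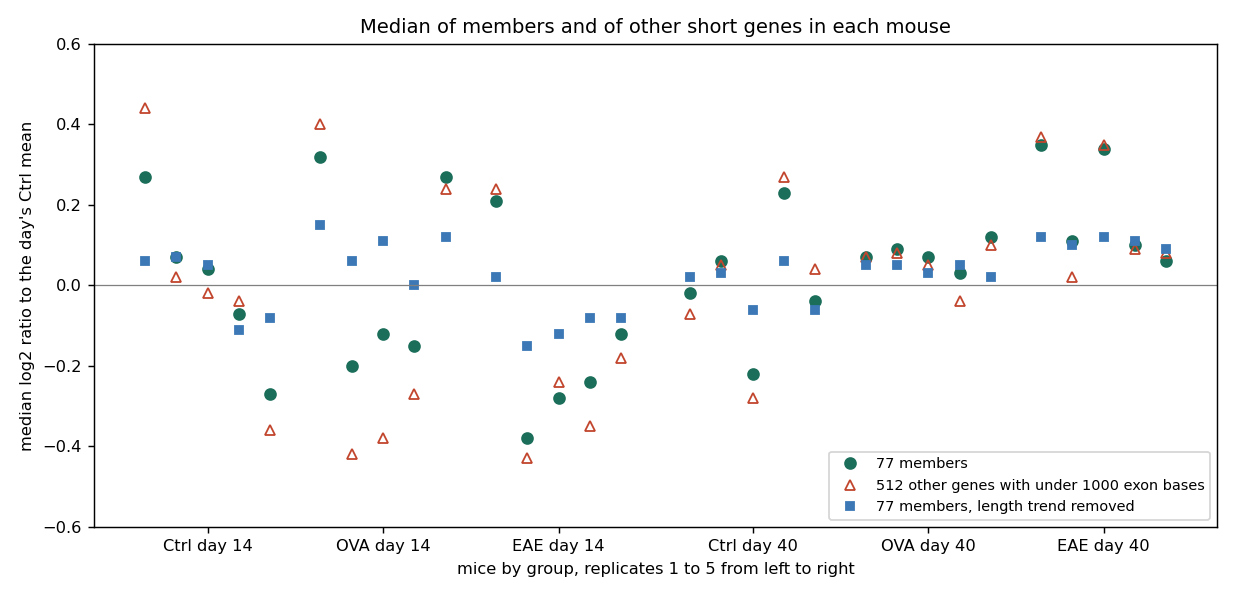
For each of the 30 mice, the vertical axis gives the median log2 ratio to the mean of the same day's Ctrl mice, for the 77 members, for 512 other genes with under 1000 exon bases, and for the members after the length trend was removed. Circles and triangles move together from mouse to mouse, and the squares lie between -0.15 and 0.15.

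OVA-immunized mice received the same adjuvant, so EAE vs. OVA on day 14 holds the adjuvant constant. Again 8 of 77 members were lower and 0 higher, where 9.28% and 11.0% of the 8674 genes tested were lower and higher. Without the fold change limit 20 were lower and 2 higher, against 15.3% and 23.8% of all genes. The members' median log2 fold change was -0.19 and that of all genes 0.11. This comparison shares its EAE-induced mice with the previous one. MRPL12 was at 141, 114, 114, 99.5 and 149 RPKM in OVA-immunized mice, all above the EAE-induced mice (-0.90 ± 0.16, adjusted p = 0.000418). MRPL47 was at 60.6, 43.7, 35.6, 36.9 and 51.7 RPKM in OVA-immunized mice and 35.1, 21.3, 23.7, 25.2 and 22.1 RPKM in EAE-induced mice (-0.83 ± 0.17, adjusted p = 0.00119). MRPL34 differed by -0.80 (adjusted p = 0.0019), and all EAE-induced mice lay below all OVA mice for each of these 3 genes. MRPL18, the homologue of L18 in the central protuberance, fell from 123 ± 22.8 RPKM (OVA) to 75.7 ± 14.6 RPKM (-0.70), and MRPL42, the most abundant member, from 321 ± 55.8 to 199 ± 34.3 RPKM (-0.69). MRPS36 (-0.68), MRPL28 (-0.64) and MRPS9 (-0.64) completed the 8 lower members. With the length trend removed 9 members were lower, against 11% of all genes, and MRPL28, MRPL42 and MRPS36 were not among them. MRPL28 passed the adjusted p in 6 of 10 fits without single mice.

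In EAE vs. OVA on day 14, 9 members had no overlap between the groups with EAE lower and 1, MRPL40, with EAE higher, against 8.20% and 18.0% of all genes. MRPL40 was at 19.3 to 24.9 RPKM in OVA and 25.0 to 40.9 RPKM in EAE-induced mice (0.44, adjusted p = 0.0244). MRPS18B (0.43, adjusted p = 0.0132) passed the adjusted p alone as well, while MRPS22 was at 0.12 (adjusted p = 0.521). MRPL45, which tethers the ribosome to the inner membrane, was at 39.3 ± 6.15 RPKM in OVA, 30.7 ± 4.96 in Ctrl and 28.0 ± 5.15 RPKM in EAE-induced mice, so that it passed the adjusted p against OVA (-0.50, adjusted p = 0.0138) and not against Ctrl (-0.14, adjusted p = 0.448). Without EAE replicate 2 the count of lower members was 5, against 7.36% of all genes. With median-of-ratios scaling 11 members were lower, beside 714 higher and 999 lower genes in all (957 and 805 before).

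Immunization with ovalbumin in the adjuvant gave no call among the members. In OVA vs. Ctrl on day 14, 0 of 77 passed limma's limits, where 0.142% of the 8471 genes tested passed in either direction. An unadjusted p below 0.05 was found for 2 members and for 821 of all genes tested. The median was 0.02, and the extremes were MRPL45 (0.36), MRPS22 (0.32), MRPL23 (-0.32) and MRPS12 (-0.24), the decoding-centre homologue of S12. The smallest adjusted p was 0.431. On day 40, 0 of 77 members and 0% of the 8706 genes tested passed, and 0 members and 272 of all genes had an unadjusted p below 0.05. There the members' median was 0.07, with 68 of 77 above 0, as were 4278 of the 8706 genes tested. The largest difference was that of MRPS34 (0.21, adjusted p = 0.999).

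**Figure D3:**
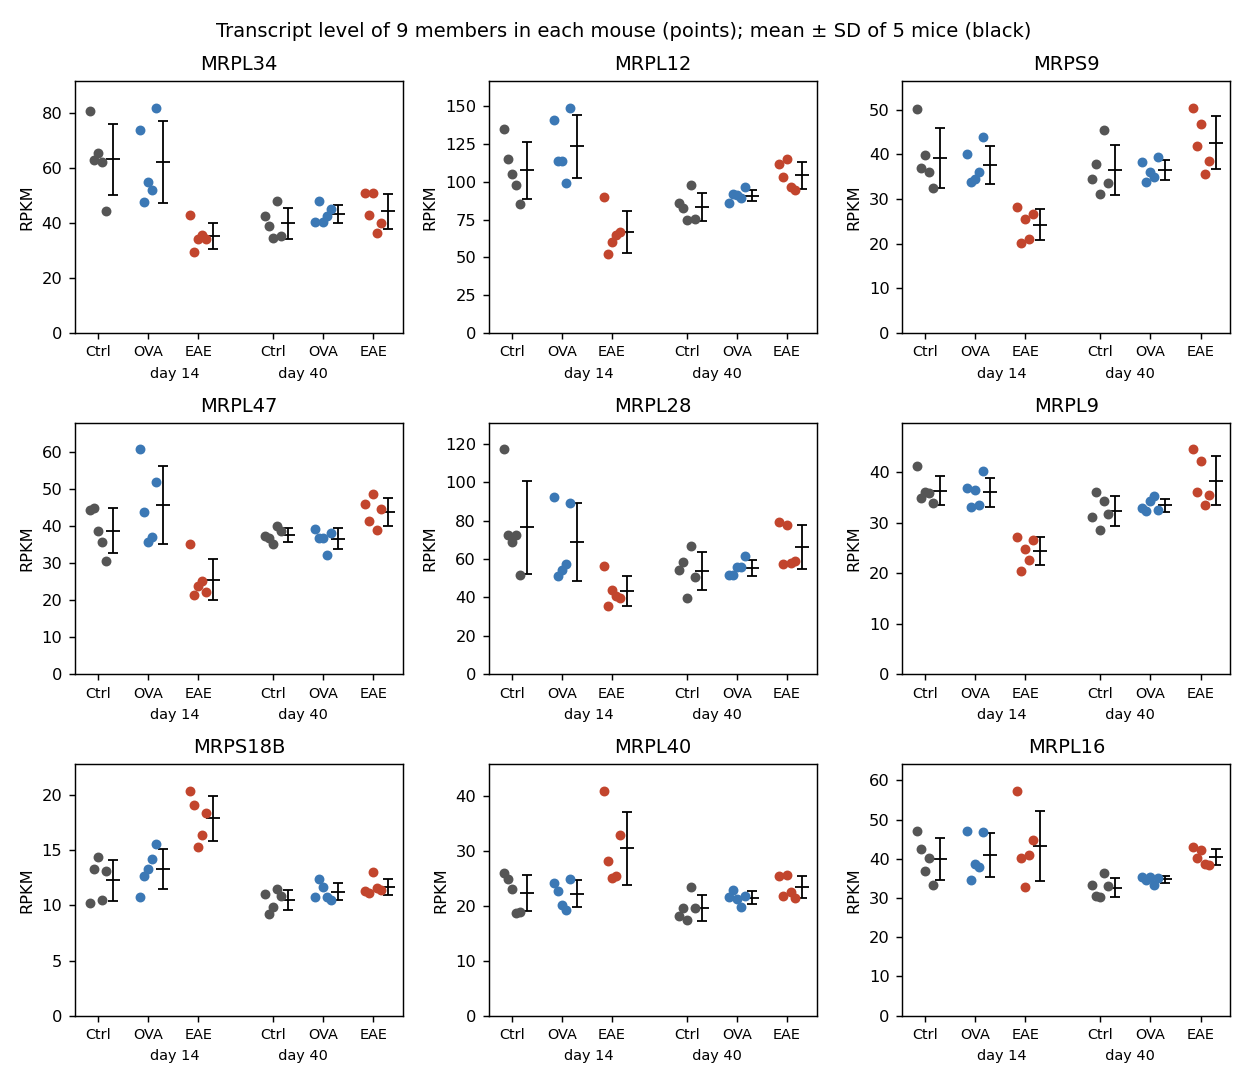
Points give RPKM of single mice (vertical axes start at 0) for 9 members in the 6 groups, and black bars the mean ± SD of 5 mice. On day 14 the EAE-induced mice are low for MRPL34, MRPL12, MRPS9, MRPL47, MRPL28 and MRPL9 and high for MRPS18B and MRPL40, and on day 40 MRPL16 is higher in all EAE-induced than in all Ctrl mice.

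On day 40, in chronic remission, the members lay slightly above the Ctrl level in EAE-induced mice. The log2 fold change of EAE vs. Ctrl was above 0 for 75 of 77 members, with a median of 0.19 where all genes had -0.05. Of the 8691 genes tested, 3501 were above 0. The members were measured in the same mice, so their signs are not independent of each other. No member passed both limits, and 0.0690% of the 8691 genes tested were higher by both. The adjusted p of limma alone was passed by 2 members, both higher, against 0.288% of all genes. An unadjusted p below 0.05 was found for 34 members and for 2423 of the 8691 genes tested. The first was MRPL16, the homologue of L16 near the binding site of the incoming tRNA. It was at 33.3, 30.4, 30.2, 36.3 and 33.0 RPKM in Ctrl and at 43.0, 40.3, 42.2, 38.7 and 38.4 RPKM in EAE-induced mice, without overlap (0.31 ± 0.06, adjusted p = 0.0197). The second was the stalk protein MRPL12, at 86.1, 82.9, 74.7, 98.0 and 75.1 RPKM in Ctrl and 112, 103, 115, 96.8 and 94.6 RPKM in EAE-induced mice (0.33 ± 0.08, adjusted p = 0.0439), with 1 Ctrl mouse inside the EAE range. Both calls depend on the setting. With only the compared groups fitted the adjusted p was 0.0838 (MRPL16) and 0.125 (MRPL12), and with all 30 mice in 1 model 0.311 and 0.343. With the length trend removed it was 0.078 (MRPL16, log2 fold change 0.19) and 0.0518 (MRPL12, 0.23). Without single mice MRPL16 passed in 9 and MRPL12 in 2 of 10 fits.

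Other members with large differences on day 40 did not pass. MRPS34, a mitochondria-specific protein of the small subunit, was at 31.7 to 54.8 RPKM in Ctrl and 46.1 to 66.6 RPKM in EAE-induced mice (0.42, adjusted p = 0.0931). MRPS18A had 71.3 ± 11.1 and 90.7 ± 9.84 RPKM (0.35, adjusted p = 0.059) and MRPL33, homologue of L33, 177 ± 32.4 and 221 ± 29.2 RPKM (0.33, adjusted p = 0.0875). The exceptions to the common sign were MRPS36 (-0.12) and MRPL35 (-0.005). MRPL16 and MRPL45 were the 2 members without overlap and EAE higher, against 0.713% of all genes. The per-mouse medians of the members were 0.35, 0.11, 0.34, 0.10 and 0.06 in EAE-induced mice and -0.02, 0.06, -0.22, 0.23 and -0.04 in Ctrl mice, and those of the 512 short genes 0.37, 0.02, 0.35, 0.09 and 0.08 in the same EAE-induced mice. With the length trend removed, the members' medians were 0.09 to 0.12 in the EAE-induced mice and -0.06 to 0.06 in the Ctrl mice, and the median log2 fold change was 0.09 (all genes -0.004).

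EAE vs. OVA on day 40 gave 0 members called by either limit, where 0.0349% (both limits) and 0.0582% (adjusted p alone) of the 8598 genes tested were higher. The members' median was 0.12 (all genes -0.04), and 71 of 77 were above 0, as were 3354 of the 8598 genes tested. An unadjusted p below 0.05 was found for 12 members and for 1500 of the 8598 genes tested. In 7 members all EAE-induced mice lay above all OVA mice (MRPS14, MRPL58, MRPL18, MRPS18A, MRPL11, MRPL16 and MRPL33), against 0.977% of all genes. The largest difference was that of MRPS18A (0.27, adjusted p = 0.178), and the smallest adjusted p was 0.0947. The per-mouse medians of the OVA-immunized mice lay on this day between 0.03 and 0.12.

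**Figure D4:**
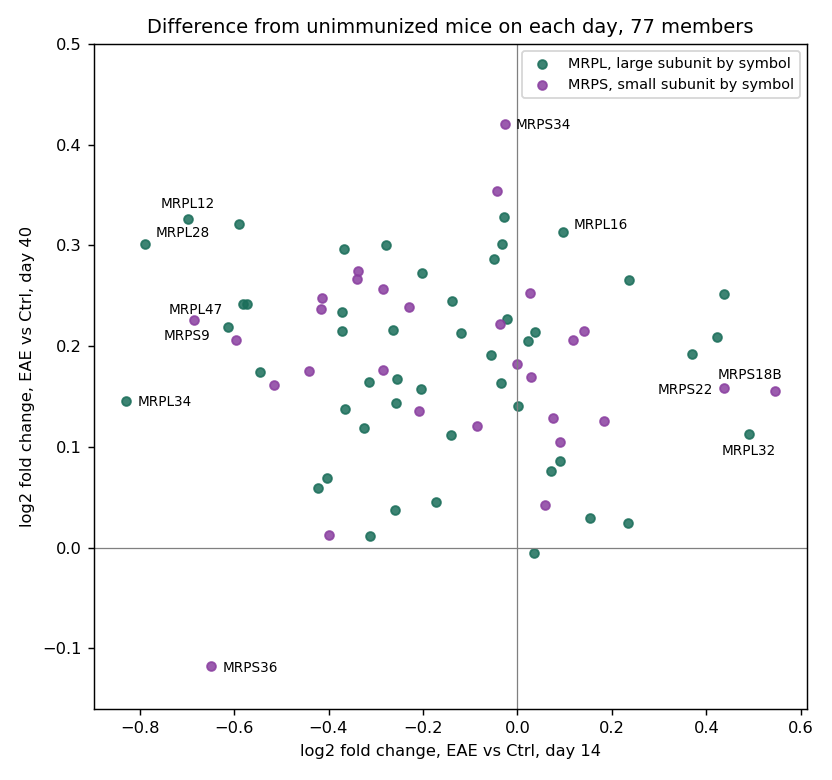
Each point is 1 of 77 members, with the log2 fold change of EAE vs. Ctrl on day 14 on the horizontal and on day 40 on the vertical axis. On day 14 the points spread from -0.83 (MRPL34) to 0.55 (MRPS18B), while on day 40 all but MRPS36 and MRPL35 lie above 0.

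An interaction term, fitted over the 30 mice, tested whether the EAE effect changed from day 14 to day 40. It also takes in differences between the days in the Ctrl or OVA mice. The members' median level on day 14 and day 40 was 35.5 and 30.0 RPKM in Ctrl and 36.7 and 32.1 RPKM in OVA mice. In EAE-induced mice it was 28.4 and 33.5 RPKM. For EAE vs. Ctrl, 17 of 77 members were called with a higher fold change on day 40 and 0 with a lower one. Of the 9013 genes tested, 11.7% were called higher and 20.9% lower. Called or not, the change was above 0 for 65 members and below 0 for 12, against 3578 and 5435 of all genes. The members' median was 0.36 and that of all genes -0.15. The 5 largest changes were those of MRPL28 (1.09), MRPL12 (1.02 ± 0.18, adjusted p = 5.84e-05), MRPL34 (0.97), MRPS9 (0.91) and MRPL27 (0.91). With the length trend removed, 13 members were higher and 1, MRPS18B, lower, against 13.5% and 12.3% of all genes, and the members' median was 0.19. Of the 17 members 9 then lost the call, MRPL34 and MRPL27 among them. MRPS18B went from 0.55 to 0.155 (change -0.39 ± 0.14, adjusted p = 0.0258), under the fold change limit. For EAE vs. OVA, 14 members were higher and 0 lower, against 8.16% and 13.7% of the 8935 genes tested, led by MRPL47 (1.09), MRPL12 (1.09), MRPL28 (0.89), MRPL18 (0.87) and MRPS9 (0.85). For OVA vs. Ctrl, 0 members and 0% of the 8848 genes tested changed between the days by limma. An unadjusted p below 0.05 was found for 0 members and for 823 of all genes tested. By subunit, 10 of 48 MRPL and 7 of 29 MRPS genes were called in the interaction of EAE vs. Ctrl. Single mice moved these counts: that for EAE vs. Ctrl was 10 without EAE replicate 2 of day 14, 11 without Ctrl replicate 1 of day 14 and 11 without EAE replicate 3 of day 40, and that for EAE vs. OVA was 9 without OVA replicate 5 of day 14. Of all genes, 9.93% were higher without EAE replicate 2 of day 14 and 11.2% without Ctrl replicate 1 of day 14.

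Other members were named for their known roles. At the stalk, MRPL12 differed in EAE vs. Ctrl on day 14, while its anchors MRPL10 and MRPL11 were at 0.07 (adjusted p = 0.579) and -0.03 (adjusted p = 0.897). MRPL1, of the opposite stalk, was at -0.17 (adjusted p = 0.246), and MRPL4, by the peptide tunnel, at -0.26 (adjusted p = 0.0479). Of members that carry mutations in human mitochondrial disease, MRPL3, of the peptidyl transferase region, was at 24.7 ± 1.79 RPKM in EAE-induced and 33.3 ± 4.56 RPKM in Ctrl mice (-0.42, adjusted p = 0.00426), and MRPL44 at 24.5 ± 2.59 and 30.9 ± 5.39 RPKM (-0.32, adjusted p = 0.0458). The small-subunit genes MRPS16 (-0.21), MRPS28 (-0.34) and MRPS34 (-0.03) and the large-subunit gene MRPL39 (0.09) did not pass. MRPS35 passed the adjusted p alone (-0.44, adjusted p = 0.032), and MRPL41 (-0.37) and MRPS30 (0.12) did not pass. MRPS30 was at 16.7 to 19.8 RPKM in 4 EAE-induced mice on day 40 and at 28.4 RPKM in the fifth.

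The members stood between other gene groups on day 14. Complex I, the entry of electrons into the respiratory chain, had 25 of 36 subunits lower in EAE vs. Ctrl (69.4%, against 11.8% of all genes), with a median log2 fold change of -0.77 (all genes 0.11) and 0 of 36 above 0. NDUFB10 (-1.09) and NDUFB9 (-0.97) had the largest changes. The proteins of the cytosolic ribosome had 8 higher and 1 lower of 73 (11.0% higher, against 14.6% of all genes), with a median of 0.26, led by RPL4 (0.85) and RPL32 (0.80). Differences between lists were not tested. On day 40, 36 of 36 complex I subunits were above 0 with a median of 0.26 and 0 were called, and the interaction of EAE vs. Ctrl was called higher for 33 of 36 (median 1.03), against 11.7% of all genes (median -0.15). The 73 cytosolic ribosomal proteins had 7 lower interactions and 0 higher, against 20.9% and 11.7% of all genes.

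The factors that build and serve the mitochondrial ribosome had few calls on day 14. Of 26 assembly factors, 2 were higher and 3 lower in EAE vs. Ctrl (median 0.03), where 14.6% of all genes were higher and 11.8% lower (median 0.11), so the share of lower factors is near the background. The same background holds for the lists that follow. METTL15, which methylates the small-subunit rRNA, was at 3.17 RPKM in EAE-induced and 1.56 RPKM in Ctrl mice (log2 fold change 1.05), and MALSU1, a placeholder of the large subunit, at 55.2 and 35.7 RPKM (0.60). MRM1, a large-subunit rRNA methyltransferase, was at 3.54 and 6.77 RPKM (-0.93) and METTL17, an assembly factor of the small subunit, at 5.56 and 10.3 RPKM (-0.91). Of 14 translation factors, TUFM, the elongation factor that brings the tRNA, was the 1 called lower (-0.62). The 13 aminoacyl-tRNA synthetases of mitochondria and 11 genes of mitochondrial DNA transcription and replication had 0 calls at medians of 0.05 and 0.09. In the 13 genes that mitochondrial DNA itself encodes, COX2, subunit 2 of cytochrome c oxidase, was the 1 called (-0.62, median of the list -0.04). The 5 ribosomal proteins with other names (CHCHD1, DAP3, AURKAIP1, PTCD3 and GADD45GIP1) had 0 calls (median -0.12).

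Of 9 regulators of mitochondrial biogenesis, 2 were lower in EAE vs. Ctrl on day 14. ESRRA, the oestrogen-related receptor α, was at 37.2 RPKM in EAE-induced and 68.1 RPKM in Ctrl mice (-0.88, adjusted p = 0.000112), and PPARGC1B, a coactivator of the PGC-1 family, at 3.53 and 5.95 RPKM (-0.73, adjusted p = 0.00221). Of the same list, 2 were higher: MYC at 9.14 and 3.93 RPKM (1.20, adjusted p = 0.00193) and PPRC1, another PGC-1 family coactivator, at 6.44 and 3.82 RPKM (0.74, adjusted p = 0.00282). Of 28 genes of mitochondrial import, TOMM70A, a receptor of the outer membrane, was the 1 called, higher by 0.67. On day 40 none of these lists held a called gene in EAE vs. Ctrl by limma, and the medians were 0.03 for assembly, 0.01 for translation factors, -0.19 for the regulators and 0.11 for import.

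**Figure D5:**
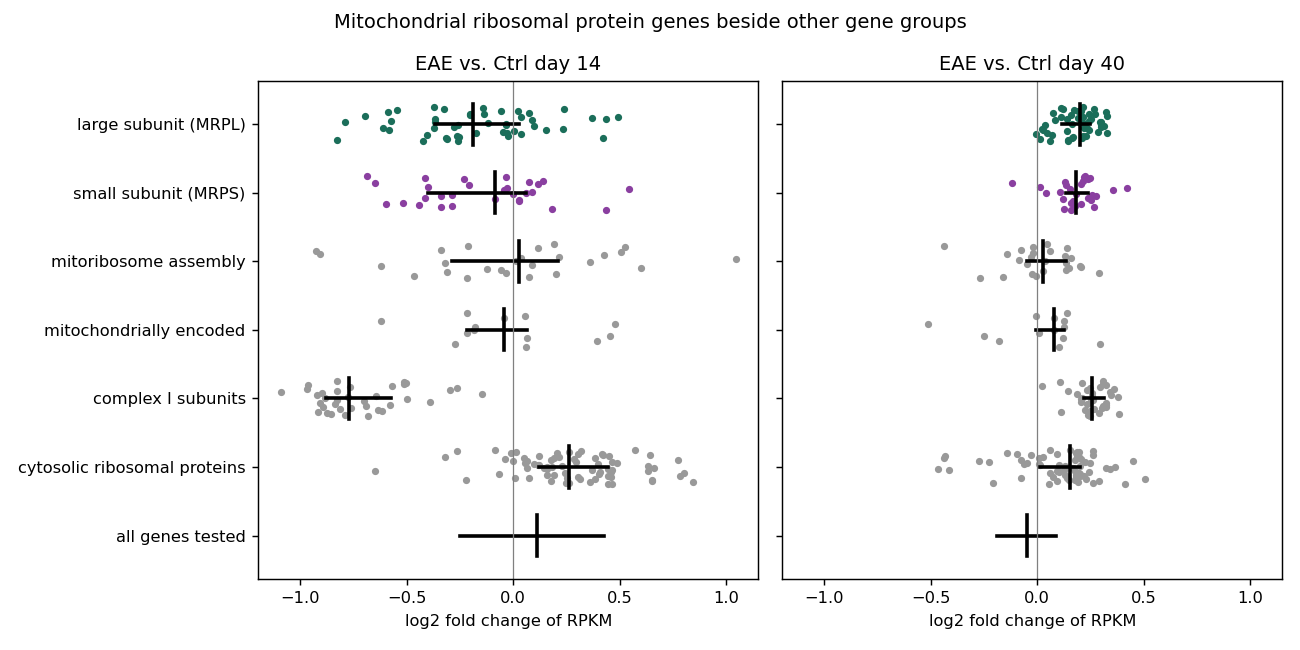
Grey and coloured points give the log2 fold change of single genes in EAE vs. Ctrl on day 14 (left) and day 40 (right), and black marks the median and quartiles of each group and of all genes tested. On day 14 the MRPL and MRPS medians of -0.19 and -0.09 lie between complex I (-0.77) and the cytosolic ribosomal proteins (0.26), and on day 40 those of MRPL (0.20), MRPS (0.18) and complex I (0.26) are all above 0.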

How the data were processed

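EDL muscle RNA of 30 mice (5 in each of 6 groups) was sequenced as directional poly(A) libraries. The authors aligned the reads to mm10 with Subread, counted them on RefSeq transcripts with featureCounts and normalized them to RPKM. The deposited values are log2(RPKM + 1), with 0.0001 for a gene without a read, although the table is named for RPKM: weighted by exon length, they summed to 1.066 to 1.085 times the total that RPKM must reach in a mouse when read as log2, and to 0.116 to 0.137 times when read as RPKM. They were converted back. RPKM shares move with abundant genes and with length effects of a library. Read counts were not used here.

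Genes above 3 RPKM in at least 1 compared group were tested with limma 3.58.1 (R 4.3.3; lmFit, eBayes with trend) on log2(RPKM + 0.1). A model held the 15 mice from 1 day, and p-values were adjusted by Benjamini-Hochberg over all genes tested. A call needed an adjusted p under 0.05 together with a 1.5-fold difference, and a fold change on this scale slightly understates that of low genes. Interactions used all 30 mice. The script was tested on simulated data. Exon lengths came from GENCODE M21, matched to 95.1% of genes and all members. Named members were the 5 most changed of the called in each direction, the 3 highest and lowest fold changes, the 5 highest and lowest levels, members of known role and those against the median that passed the adjusted p alone. Others were named because they were near a limit or without overlap, after their values were seen. Companion lists were compiled from textbook knowledge. Members and lists were chosen with earlier results of these data known. Groups came from sample titles. That mice of a group are separate animals is taken from the labels.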

Additional observations from a re-analysis of the deposited data

Results flagged for a closer look

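In 45 named members and 6 groups (270 sets of 5 mice), 13 sets (4.81%) held a mouse whose gap to the others exceeded Dixon's critical value of 0.71, and chance alone flags about 5% of such sets. Of these, 6 belonged to EAE replicate 1 on day 14, which was the highest of its group for MRPL33 (352 RPKM, others 174 to 212), MRPL36 (0.845 RPKM, others 0.139 to 0.302), MRPL47 (35.1 RPKM, others 21.3 to 25.2), MRPS10 (16.6 RPKM, others 9.4 to 10.8), MRPS12 (72.2 RPKM, others 42.3 to 50.1) and MRPS34 (92.3 RPKM, others 56.1 to 63.7). In that mouse the 512 short genes that are no members had a median log2 ratio of 0.24, against -0.43 to -0.18 in the other 4. Without that mouse 12 members were lower in EAE vs. Ctrl, against 12.4% of all genes. On day 14, Ctrl replicate 5 was low for MRPL18 (90.6 RPKM, others 113 to 120) and Ctrl replicate 1 high for MRPL23 (12.5 RPKM, others 5.46 to 6.83). On day 40, OVA replicate 3 was high for MRPL57 (9.90 RPKM, others 8.43 to 8.68), OVA replicate 5 for MRPS17 (6.54 RPKM, others 5.57 to 5.76), EAE replicate 3 for MRPS18B (13.0 RPKM, others 11.1 to 11.6) and EAE replicate 1 for MRPS30 (28.4 RPKM, others 16.7 to 19.8), and OVA replicate 4 was low for MRPS18C (35.7 RPKM, others 47.0 to 51.5).

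The EAE effect differed between the days by the interaction test in 17 members against Ctrl and 14 against OVA, all higher on day 40. Against Ctrl the changes in log2 fold change were 1.09 (MRPL28), 1.02 (MRPL12), 0.97 (MRPL34), 0.91 (MRPS9), 0.91 (MRPL27), 0.83 (MRPL47), 0.82 (MRPL9), 0.81 (MRPL18), 0.80 (MRPS25), 0.72 (MRPL42), 0.68 (MRPS33), 0.65 (MRPS21), 0.61 (MRPS35), 0.61 (MRPS28), 0.61 (MRPS11), 0.61 (MRPL41) and 0.59 (MRPL15). Against OVA they were 1.09 (MRPL47), 1.09 (MRPL12), 0.89 (MRPL28), 0.87 (MRPL18), 0.85 (MRPS9), 0.82 (MRPL34), 0.78 (MRPL42), 0.76 (MRPL9), 0.75 (MRPS33), 0.66 (MRPL27), 0.65 (MRPS35), 0.63 (MRPL45), 0.62 (MRPS36) and 0.59 (MRPS25). The shares of all genes called higher were 11.7% and 8.16%.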

How the results depend on the processing

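The counts of members called were 8 and 8 in EAE vs. Ctrl and EAE vs. OVA on day 14, 0 on day 40, and 17 and 14 in the interactions. A pseudocount of 1 gave 5, all lower, in EAE vs. Ctrl on day 14, where 10.1% of all genes were lower. Without the fold change limit the counts were 25 and 22 on day 14, 2 in EAE vs. Ctrl on day 40, and 30 and 24 in the interactions. Of all genes, 28.8% were then higher and 19.0% lower in EAE vs. Ctrl on day 14, and 23.8% and 15.3% in EAE vs. OVA. In EAE vs. Ctrl on day 40 the shares were 0.288% and 2.35%. In the interactions 16.5% were higher and 32.1% lower against Ctrl, and 993 and 2145 of 8935 genes against OVA. With single mice left out the counts of called members were 4 to 12 and 5 to 10 on day 14, 10 to 25 and 9 to 19 in the interactions, and 0 to 0 in the other comparisons. Of all genes, 9.94% to 12.8% were lower in these fits of EAE vs. Ctrl on day 14 and 7.36% to 10.3% in those of EAE vs. OVA. In the interaction of EAE vs. Ctrl, 9.93% of all genes were higher without EAE replicate 2 of day 14 (10 members). Without EAE replicate 1 of day 14 (25 members) 13.1% were higher. With single mice left out, the members' medians were -0.23 to -0.10 (EAE vs. Ctrl), -0.30 to -0.10 (EAE vs. OVA) and -0.06 to 0.08 (OVA vs. Ctrl) on day 14 and 0.14 to 0.25, 0.08 to 0.16 and 0.01 to 0.12 on day 40. Median-of-ratios scaling moved the median of all genes in the interaction of EAE vs. Ctrl from -0.15 to -0.04 and gave 25 and 21 called members in the interactions, beside 1374 higher and 1379 lower genes in all against Ctrl (1059 and 1888 before) and 954 and 801 against OVA (729 and 1222 before). With the length trend removed the interactions gave 14 (13 higher and 1 lower) and 14 (all higher), of which 8 and 10 were among those called before.

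Of 81 results of named members under 1756 alternatives, 1588 kept their side of the limits, and 141 lost and 12 gained the call. Results not called in the main analysis count as kept while they stay so, and dropping the fold change limit cannot lose a call. A further 15 changed sign, all on day 40 and none of them called. MRPL35 in EAE vs. Ctrl became 0.01 with median-of-ratios scaling, 0.09 with the length trend removed, and -0.04 to 0.04 without single mice, and in EAE vs. OVA 0.01 with the length trend removed. MRPL23 in EAE vs. Ctrl became -0.18 with the length trend removed and -0.08 to 0.10 without single mice. Without single mice MRPS36 ranged from -0.09 to 0.02 in EAE vs. OVA and from -0.11 to 0.03 in OVA vs. Ctrl, and MRPS10 from -0.09 to 0.03 in EAE vs. OVA. The causes were not tested. Same-numbered mice of a day did not deviate together (median correlation -0.07 over 30 pairs, 8 above 0.1), and the replicate block, which pairs equal numbers, gave 8 and 8 members on day 14 and 19 and 14 in the interactions, and adjusted p-values of 0.096 (MRPL16) and 0.124 (MRPL12) in EAE vs. Ctrl on day 40. With the block, 11.9% and 9.41% of all genes were lower on day 14 against Ctrl and OVA, and 11.9% were higher in the interaction against Ctrl.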
